A study of Mus musculus with 4 samples.

Results

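The receptors *Notch1*, *Notch2*, *Notch3* and *Notch4*, the ligands *Dll1*, *Dll4*, *Jag1* and *Jag2* and the target genes *Hes1* and *Hes5* were followed in whole mouse embryos. They were taken by name: every probe that was not a control and whose gene name in the scanner output was 1 of these was used, which gave 16 probes for these 10 of the 37325 genes named on the array. Of the 16 probes, 12 were well above background on all 4 arrays and 4 were so on none, and each of the 10 genes had at least 1 probe well above background.

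The study asked how gene expression differs when the protein kinase Dyrk2 is missing during early organogenesis. Total RNA of whole C57BL/6 embryos was labelled with Cy3 and hybridized to Agilent arrays in 4 groups of 1 array: WT and *Dyrk2*-/- embryos of embryonic day (E) 8.5, and both genotypes again at E10.5. The null alleles were short deletions made with a CRISPR/Cas9 nickase in several founder lines, and the line and the number of embryos behind each RNA were not given in the sources used here. With 1 array per group, no difference between genotypes at a stage, or between stages in a genotype, could be tested, and such differences are given without a p.

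Values are log2 of the processed intensity minus the 75th percentile of the array, so that 0 stands for that percentile. Between 30226 and 31943 probes were well above background on an array. Spots of the same probe printed several times on 1 array differed with a median SD of 0.073 to 0.12 (log2). Each probe of the Notch genes was printed as a single spot, and the error that the scanner software attaches to a spot came to 0.20 to 0.42 (log2) for a difference between genotypes at the 12 probes well above background. Probes differ in how strongly they bind, so levels were compared for 1 probe between arrays and never between probes. A summed level of a marker list adds probes of unequal binding, so the probe that leads a sum has the most signal and need not stand for the most RNA.

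The labels were checked with *Dyrk2* itself. Its brightest probe read 0.062 on the WT array and 0.76 on the array labelled *Dyrk2*-/- at E8.5, and gave −0.31 and 0.34 at E10.5. It was thus higher by 0.70 and 0.65 on the arrays labelled *Dyrk2*-/-, and limma over both stages gave it an adjusted p of 0.24. The other *Dyrk2* probe was higher by 0.032 and 0.28. A short deletion can leave the rest of a transcript in place, neither probe was placed relative to the deletions, and a probe outside them checks nothing. The *Dyrk2*-/- arrays are therefore named by their labels throughout.

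The arrays also differed in the make-up of the embryos. *Xist*, the RNA of the inactive X chromosome, was detected in E10.5 embryos labelled *Dyrk2*-/- alone, where it exceeded the WT array of that stage at least 20.4-fold. At their brightest probes none of the Y-linked genes *Uty*, *Kdm5d*, *Ddx3y* and *Eif2s3y* was detected on that array, while the remaining 3 arrays had all of them. A dimmer *Kdm5d* probe, made to the Ensembl transcript ENSMUST00000055032, was detected on each of the 4 arrays, with a difference of −0.17 at E10.5. At E10.5 genotype and sex of the embryos cannot be told apart, and in the arrays labelled *Dyrk2*-/- neither can stage and sex. Genes of erythroid cells were low on the WT E8.5 array: their summed level, relative to the 75th percentile, was 13.5 there and 264 on the array labelled *Dyrk2*-/- of that stage. For E10.5 the sums were 819 and 987. All 9 of them were higher on the array labelled *Dyrk2*-/- at E8.5, with a median log2 difference of 4.27. The embryonic globin *Hbb-bh1* led the sum over the 4 arrays, and *Hbb-y* led it on the E10.5 arrays. At E10.5 the median was 1.12, with 7 of 9 at least 1.5-fold higher. In RNA of whole embryos, fewer cells of a type and less RNA per cell cannot be told apart, and the part of these differences in the values of the Notch genes was not tested.

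Notch receptors are transmembrane proteins that are activated by ligands of the Delta-like and Jagged families on neighbouring cells. On activation the receptor is cleaved, and its intracellular domain joins the DNA-binding protein Rbpj and a Mastermind coactivator at target genes such as the Hes and Hey repressors. In embryos of these stages the pathway is best known for setting the somite clock and the boundaries of somites, for holding neural progenitors back from differentiation and for the choice between arterial and venous endothelium.

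Between the genotypes few of the 10 genes were far apart. At E8.5, 0 of 10 were 1.5-fold or more higher on the array labelled *Dyrk2*-/- and 1 was lower, *Notch1*. Of all 20848 genes tested at their brightest probe, 5.14% were that much higher and 6.52% that much lower. Later, at E10.5, 0 of 10 were that much higher and 0 lower, beside 3.5% and 4.22% of 21351 genes.

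The median difference of the 10 genes was 0.19 at E8.5, beside −0.022 over all genes, and −0.17 at E10.5, beside −0.00066. On the array labelled *Dyrk2*-/- 6 of 10 were higher at E8.5 and 3 of 10 later, which became 1 and 5 with scaling by the spike-in control probes and 3 and 1 with no scaling between arrays. These scalings shift all genes: with spike-in scaling the median of all genes between genotypes stood at −0.57 at E8.5 and 0.16 at the later stage, and between stages at −0.15 in WT and 0.59 in the arrays labelled *Dyrk2*-/-. Without scaling it stood at −0.28, −0.13 and, between stages in the arrays labelled *Dyrk2*-/-, 0.25. With spike-in scaling 1.4% of genes were 1.5-fold higher and 47.6% lower at E8.5, against 5.86% and 2.59% for E10.5, and between stages 17% and 20.6% in WT and 50.1% and 4.6% in the arrays labelled *Dyrk2*-/-. Without scaling the shares were 2.46% and 15.4%, 2.66% and 6.55%, 24.1% and 11.9%, and 28.3% and 7.29%.

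**Figure D1:**
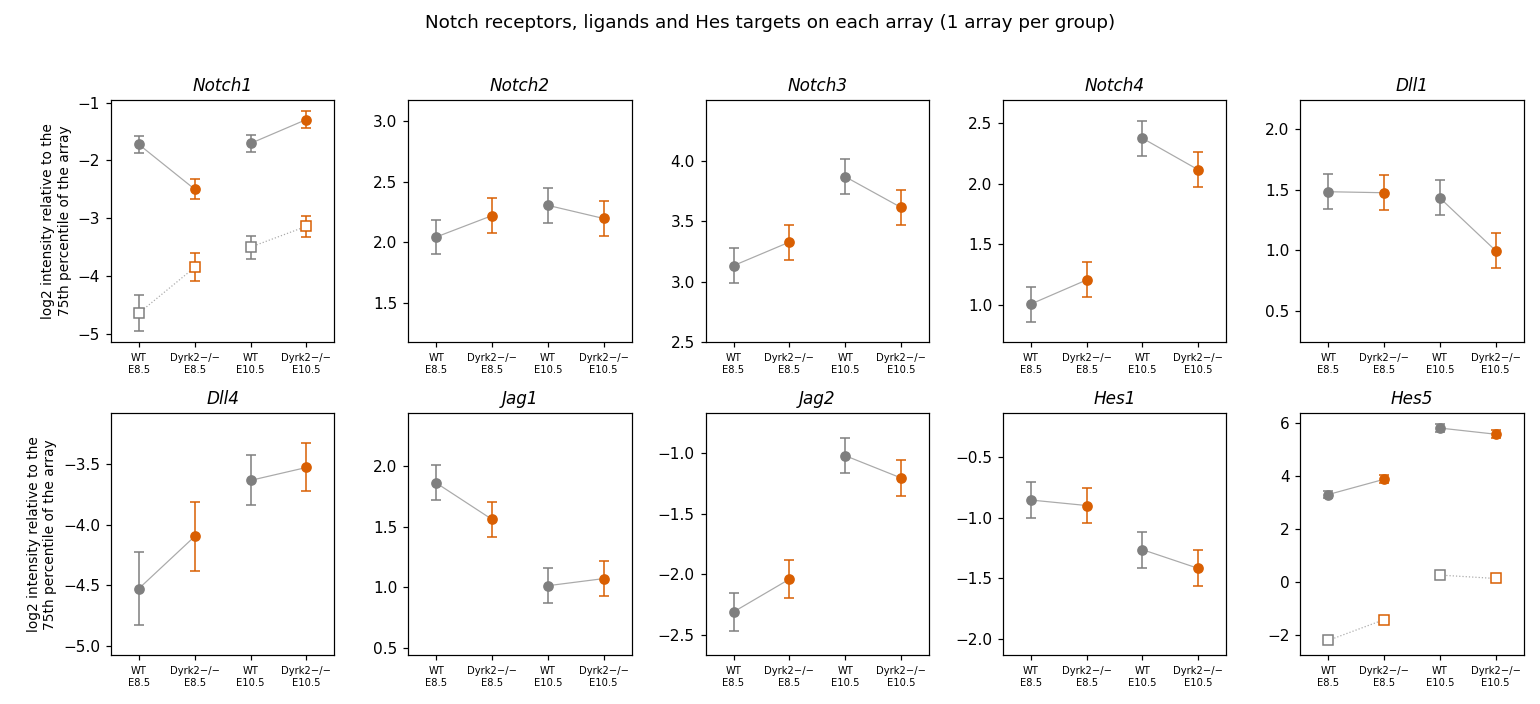
Level of each gene on each of the 4 arrays (log2 intensity relative to the 75th percentile of the array, 1 array per group, each panel with its own axis). Filled circles are the brightest probe, open squares the other probe well above background of *Notch1* and *Hes5*, bars the error of the scanner software and lines join the genotypes of a stage. *Hes5* is higher on both E10.5 arrays than on both E8.5 arrays, and the probes of *Notch1* run in opposite directions at E8.5.

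*Notch1*, a receptor used in somites, endothelium and the neural tube, gave opposite answers at its probes. The brightest probe, made to the RefSeq transcript, read −1.73 on the WT array and −2.50 on the array labelled *Dyrk2*-/- at E8.5, with −1.71 and −1.29 at E10.5. The array labelled *Dyrk2*-/- at E8.5 was thus the low one and the other 3 lay above it, with a difference from WT of −0.77 at E8.5, which is 1.71-fold. At E10.5 the difference was 0.41. The other probe, made to the Ensembl transcript ENSMUST00000131393 and dimmer, read −4.65 and −3.85 at E8.5 and then −3.50 and −3.14 at E10.5. There the WT E8.5 array was the low one, and the array labelled *Dyrk2*-/- was higher by 0.79 at E8.5 and by 0.36 at E10.5.

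The error of the scanner software for the E8.5 difference was 0.23 at the brighter *Notch1* probe and 0.40 at the dimmer one, so each difference was larger than its error and their signs were opposite. The mean over both probes was 0.0086. With the normexp background correction the difference at the brighter probe was −0.37, which no longer reached 1.5-fold. Among the 6604 genes with several probes well above background on all 4 arrays, 19, or 0.288%, had 1 probe at least 1.5-fold higher and another at least 1.5-fold lower at E8.5. The probes are printed because the direction given for *Notch1* at E8.5 depends on which of them is read. They lie on the minus strand of chromosome 2 in mm9, the brighter at chr2:26319440-26319499 and the dimmer at chr2:26354049-26354108, each 60 bases long, and which exon or intron holds each was not determined.
*Notch1* A_55_P2171897: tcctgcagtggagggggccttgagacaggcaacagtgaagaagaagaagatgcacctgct
*Notch1* A_55_P2722000: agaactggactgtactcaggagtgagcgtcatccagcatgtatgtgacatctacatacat

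*Notch2*, a receptor broadly made in the embryo, read 2.04 on the WT array and 2.22 on the array labelled *Dyrk2*-/- at E8.5, then 2.31 and 2.20 at E10.5. The 4 arrays lay close together and the stages overlapped. Its differences between genotypes, 0.18 and then −0.11, were both smaller than the scanner error of 0.20, and both changed sign with spike-in scaling. The second probes of *Notch2* and *Dll1* stayed near background on each array and were not read.

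*Notch3*, the receptor of mural cells and of progenitors in the neural tube, read 3.13 and 3.33 at E8.5, then 3.87 and 3.61 at E10.5, WT first. *Notch4*, a receptor made mainly by endothelium, read 1.01 and 1.21 at E8.5 against 2.38 and 2.12 at E10.5 in the same order. In both genes the E10.5 arrays were the high ones, the array labelled *Dyrk2*-/- was the higher at E8.5 and the WT array the higher at E10.5. The difference between genotypes was 0.19 and −0.25 for *Notch3* and 0.20 and −0.26 for *Notch4*, near the scanner error of 0.20, and at E8.5 both turned negative with spike-in scaling and without scaling. The other *Notch4* probes, A_55_P2740966 and A_55_P2738516, also stayed near background throughout. The array's own coordinates place A_55_P2738516 379 kb from the brightest *Notch4* probe on chromosome 17.

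**Figure D2:**
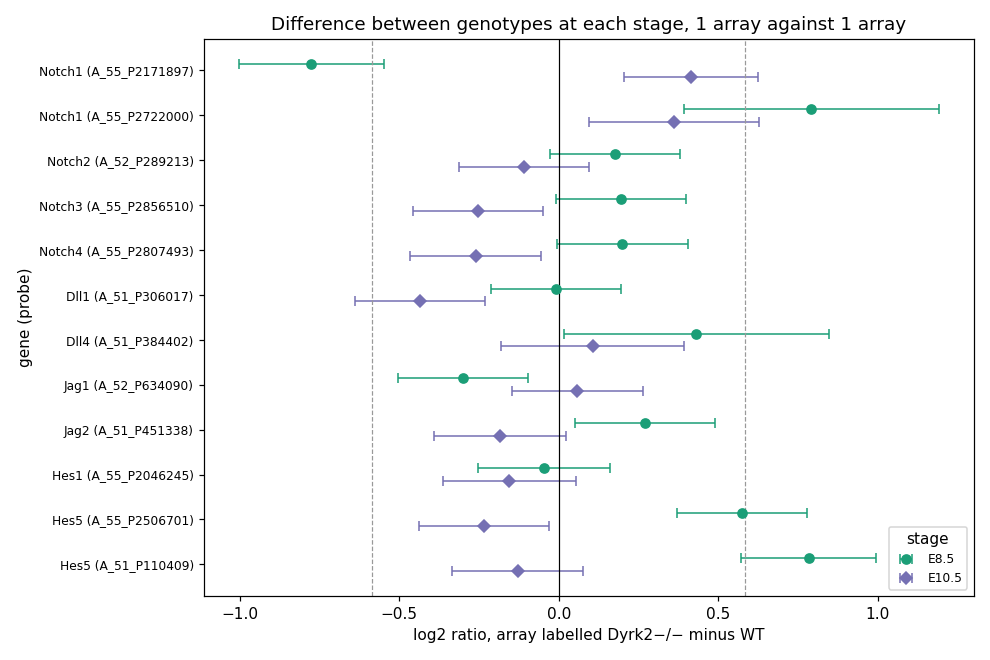
Difference between genotypes at each stage for the 12 probes of the 10 genes that were well above background on all 4 arrays (log2, array labelled *Dyrk2*-/- minus WT). Bars are the error of the scanner software for the difference of 1 array from 1 array and dashed lines mark 1.5-fold. At E8.5 1 *Notch1* probe lies at −0.77 and the other at 0.79, and the receptors other than *Notch1* reach 0.20 at E8.5, where spike-in scaling or no scaling puts them below 0, and −0.26 at E10.5.

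Among the ligands, *Dll1*, which acts in presomitic mesoderm and in newborn neurons, read 1.49 on the WT array and 1.48 on the array labelled *Dyrk2*-/- at E8.5, followed by 1.43 and 0.999 at E10.5. At E10.5 the array labelled *Dyrk2*-/- was the low one, and the other 3 were level. Its difference from WT at E8.5 was −0.0083, or 0.015 with normexp, −0.27 without scaling and −0.56 with spike-in scaling. At E10.5 it was −0.44, the most negative of the 10 genes, and it was negative with each scaling tried. Of all genes tested, 6.95% were as low or lower at E10.5. At that stage markers of neurons and several of presomitic mesoderm were lower on the same array, as given with the marker lists.

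*Dll4*, the ligand of arterial endothelium and sprouting vessels, was dim, with −4.53 and −4.09 at E8.5, and later −3.63 and −3.53 at E10.5. The WT E8.5 array was the lowest and the E10.5 arrays were the high ones. With normexp the stage difference was 0.17 in WT and −0.052 in the arrays labelled *Dyrk2*-/-. The array labelled *Dyrk2*-/- was higher by 0.43 at E8.5, or −0.12 with spike-in scaling, and by 0.11 at E10.5, or −0.025 without scaling. The scanner errors of these differences were 0.42 and 0.29.

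*Jag1*, a ligand of the developing ear, vessels and heart, read 1.86 and 1.56 at E8.5, then 1.01 and 1.07 at E10.5. The WT E8.5 array was the high one and the E10.5 arrays were low and level. The difference between genotypes was −0.30 at E8.5, or −0.56 without scaling and −0.85, past 1.5-fold, with spike-in scaling, and 0.059 at E10.5, which was −0.073 without scaling. *Jag2*, a ligand of limb ectoderm and craniofacial epithelium, read −2.31 and −2.04 at E8.5 against −1.02 and −1.21 at E10.5. The E10.5 arrays were the high ones, and the difference between genotypes was 0.27 at E8.5, −0.28 there with spike-in scaling, and −0.18 at E10.5.

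*Hes1*, a repressor that Notch induces in many tissues and that oscillates in progenitors, read −0.85 on the WT array and −0.90 on the array labelled *Dyrk2*-/- at E8.5, next to −1.26 and −1.42 at E10.5. The E8.5 arrays were the high ones. Its difference between genotypes at E8.5 was −0.045, or 0.021 with normexp, −0.30 without scaling and −0.59, past 1.5-fold, with spike-in scaling. At E10.5 it was −0.15, or 0.0071 with spike-in scaling, and the scanner error was 0.21 at both stages.

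*Hes5*, the Notch target typical of neural progenitors, had the widest range of the 10 genes. Its brightest probe read 3.31 and 3.88 at E8.5, and later 5.82 and 5.59 at E10.5, and its other probe read −2.19 and −1.41 at E8.5, then 0.27 and 0.14 at E10.5. At both probes the E10.5 arrays were far above the E8.5 arrays, the array labelled *Dyrk2*-/- was the higher at E8.5 and the WT array the higher at E10.5. The difference between genotypes at E8.5 was 0.58 at the brightest probe, or 1.49-fold and so just under the threshold, and 0.78 at the other, or 1.72-fold. At E10.5 it was −0.23 and −0.13. With spike-in scaling the E8.5 difference at the brightest probe was 0.028.

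The genotype was also tested with limma over both stages, in a model that also held the stage and left 1 residual degree of freedom. Limma joins this with a variance prior drawn from all probes tested, with a median of 8.07 degrees of freedom. Each SE and p from limma thus rests mainly on the spread of other probes. Of 32289 probes, 0.0124% were called higher and 0.00619% lower at an adjusted p under 0.05, and 1592 had an unadjusted p under 0.05. Of the 10 genes at their brightest probe, 0 were called and 0 had an unadjusted p under 0.05, and without the intensity trend limma called 0 as well. The smallest p among them was that of *Dll1*, with a limma log2 difference of −0.22, SE 0.14 and an adjusted p of 1. A p that misses the threshold does not show that the levels were equal.

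Between the stages the 10 genes moved further. In WT, 5 of 10 were 1.5-fold or more higher at E10.5 than at E8.5 and 1 was lower, beside 18.8% and 17.5% of 21788 genes. In the arrays labelled *Dyrk2*-/-, 4 of 10 were that much higher and 0 lower, beside 17.5% and 13.9% of 21405 genes, and 7 and 0 with spike-in scaling, beside 50.1% and 4.6%. The median difference of the 10 genes was 0.50 in WT and 0.43 in the arrays labelled *Dyrk2*-/-, beside −0.082 and −0.052 over all genes. These comparisons share no array with each other, but each shares 1 array with each comparison between genotypes.

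Tested with limma over both genotypes, 15.7% of probes were called higher at E10.5 and 19.6% lower. Of the 10 genes, 4 were called higher and 2 lower, which became 1 and 0 with spike-in scaling, 6 and 1 without scaling and 3 and 0 without the intensity trend. The probes called on the array were 6.49% higher and 1.67% lower with spike-in scaling, 27.1% and 9.32% without scaling, and 11% and 8.92% without the trend. With 1 array per group, the residual of this test is how far the stage difference varied with genotype.

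*Hes5* rose the most of the 10, by 2.11 (log2, SE 0.18, limma adjusted p = 3.27e-05) at its brightest probe and by 2.01 (SE 0.21, adjusted p = 0.000132) at the other, and it was higher at E10.5 in both genotypes. Its rise was 5.69-fold in WT and 3.25-fold in the arrays labelled *Dyrk2*-/- at the brightest probe, and the difference between these was not tested. This call held with spike-in scaling, where it was the only call among the 10 genes.

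The receptor *Notch4* rose by 1.14 (SE 0.15, limma adjusted p = 0.000408), and the receptor *Notch3* by 0.51 (SE 0.14, adjusted p = 0.0189). Among the ligands *Jag2* rose by 1.06 (SE 0.18, adjusted p = 0.00225) and *Jag1* fell by 0.67 (SE 0.14, adjusted p = 0.00573). The target *Hes1* fell by 0.46 (SE 0.16, adjusted p = 0.0442), opposite to *Hes5*. Each of these had the same direction in both genotypes, and with spike-in scaling the arrays labelled *Dyrk2*-/- gave 0.15 for *Jag1* and 0.12 for *Hes1*, the opposite sign. Without the intensity trend the calls of *Notch3*, *Jag1* and *Hes1* were lost, and without scaling that of *Hes1* was.

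The other 4 genes were not called between stages at their brightest probes. Without scaling *Notch1* and *Dll4* were called higher, beside 27.1% of probes, and without a filter *Notch1* was, beside 10.6%. *Notch1* at its brightest probe differed by 0.61 (SE 0.26, limma adjusted p = 0.1), from 0.018 in WT and 1.21 in the arrays labelled *Dyrk2*-/-, and the WT value was −0.10 after quantile normalization. The low E8.5 array labelled *Dyrk2*-/- thus carries that difference. At its other probe the difference was 0.93 (SE 0.31, limma adjusted p = 0.0431), which passed the threshold of 0.05. *Dll4* differed by 0.73 (adjusted p = 0.107), from 0.89 in WT and 0.57 in the arrays labelled *Dyrk2*-/-, or 0.17 and −0.052 with normexp. *Dll1* differed by −0.26 (adjusted p = 0.187) and *Notch2* by 0.12 (adjusted p = 0.513). At an unadjusted p under 0.05 there were 8 of the 10 genes, *Notch1* and *Dll4* besides those called, and 14679 of the 32289 probes.

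The other genes of the pathway were read as a list of 69, all of them on the array. At E8.5, 2 of 68 tested were 1.5-fold or more higher on the array labelled *Dyrk2*-/- and 1 was lower, beside the 5.14% and 6.52% of all genes. With spike-in scaling 1 was that much higher and 31 lower, and without scaling 1 and 7. The higher ones were *Bhlhe40*, a repressor related to the Hes family, by 1.45, and the Deltex gene *Dtx3*, by 0.65, and the lower one was the transcription factor *Sox9*, with −0.72. The other *Sox9* probe was 0.16, so its probes differed in direction at E8.5. The list's median was 0.043, with 37 higher and 31 lower, and with spike-in scaling 2 were higher and 66 lower, without scaling 13 and 55.

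At E10.5, 0 of 68 were 1.5-fold or more higher and 3 were lower: the neuronal ligand *Dner* with −0.83, the Deltex gene *Dtx1* with −0.59 and *Hes2* with −0.80, a Hes gene well above background on both E10.5 arrays only. Of all genes 3.5% were 1.5-fold higher and 4.22% lower, and the list gave 1 higher and 2 lower with spike-in scaling and 0 and 4 without scaling. Of the 68 genes 53 were lower on the array labelled *Dyrk2*-/- and 15 higher, where 49.9% of all genes were higher, with a median of −0.081, and with spike-in scaling 24 were lower and 44 higher, without scaling 64 and 4. *Dll3*, a ligand of the somite clock, was lower there with −0.54, and *Nrarp*, a Notch target that feeds back on the pathway, differed by −0.19. Under limma over both stages 0 of 68 were called for genotype, also without the trend, 3 had an unadjusted p under 0.05, and the smallest adjusted p was 0.438 for *Sox9*. Without scaling 2 were called lower, *Dner* and *Sox9*, beside 1.9% of probes, and without a filter 1 of 69 was, *Sox9*, beside 0.498%.

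Between the stages 17 of these 68 genes were called higher by limma and 11 lower, beside 15.7% and 19.6% of probes. With spike-in scaling 5 were called higher and 2 lower, beside 6.49% and 1.67%, and without scaling 26 and 4, beside 27.1% and 9.32%. The Hes and Hey repressors went both ways. *Heyl* rose by 4.85 (SE 0.21, adjusted p = 9.21e-07) and *Hes6* by 1.51 (SE 0.14, adjusted p = 6.51e-05), whereas *Hes7*, the repressor of the somite clock, fell by 2.48 (SE 0.13, adjusted p = 2.54e-06) and *Hes3* fell by 3.13 (SE 0.18, adjusted p = 3.86e-06). The Fringe enzyme *Mfng*, which adds a sugar to Notch receptors, rose by 1.79 (SE 0.13, adjusted p = 1.41e-05), *Dner* by 2.48 (SE 0.21, adjusted p = 3.32e-05) and *Nrarp* by 1.25 (SE 0.16, adjusted p = 0.000443). Each of these had the same direction in both genotypes. With spike-in scaling *Hes6* and *Nrarp* were not called, while *Heyl*, *Hes7*, *Hes3*, *Mfng* and *Dner* were.

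Several genes of the common machinery were read at their brightest probes. The DNA-binding partner *Rbpj* read 2.87 and 2.78 at E8.5 against 2.84 and 2.69 at E10.5, and the coactivator *Maml1* read 2.48 and 2.19, and then 2.42 and 2.36. The ubiquitin ligase *Mib1*, which activates ligands by endocytosis, read 2.99 and 2.91, and then 3.07 and 2.98. The widest difference among these 3 probes was −0.29 (log2), between genotypes at E8.5 for *Maml1*. The other *Rbpj* probe differed by −0.43 between genotypes at E8.5.

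**Figure D3:**
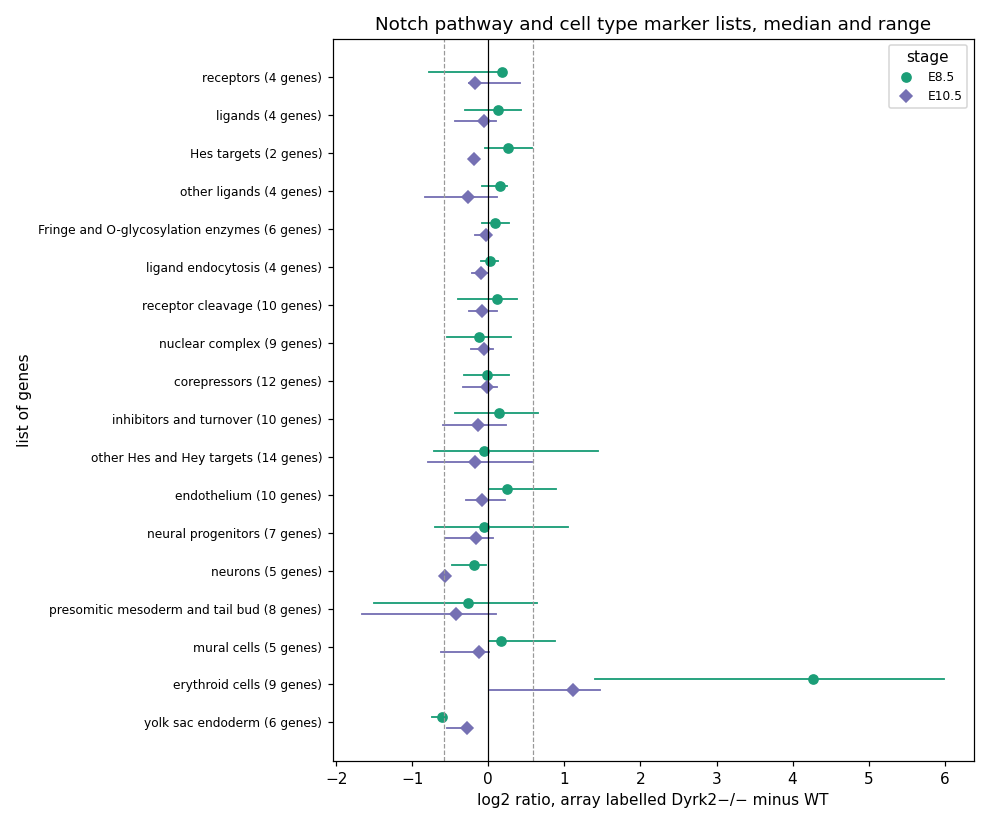
Difference between genotypes for the lists of Notch pathway genes and of cell type markers (log2, array labelled *Dyrk2*-/- minus WT), over genes well above background on either array of the pair. Symbols are the median of a list, lines its range and dashed lines 1.5-fold. Of the cell type lists, erythroid genes have the highest median at each stage, 4.27 at E8.5 and 1.12 at the later stage. The medians of the pathway lists lie between −0.26 and 0.26, before spike-in scaling, which puts the median of all genes at −0.57 and 0.16.

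Markers of the cell types that make Notch genes were read beside them. All 10 endothelial markers were higher on the array labelled *Dyrk2*-/- at E8.5, 2 of them at least 1.5-fold. Their median was 0.24, and 3 of 10 were higher with spike-in scaling and 4 of 10 without scaling. Their summed levels were 57.6 in WT and 63.6 on the array labelled *Dyrk2*-/- at E8.5, and later 51.2 and 51.2 at E10.5, where the median was −0.081, or 0.081 with spike-in scaling. The *Egfl7* probe led the sum on each array, and each marker was well above background on all 4 arrays. Between stages the genes did not follow the sum: 6 of 10 were higher at E10.5 in WT, 5 of them at least 1.5-fold, with a median of 0.54. In the arrays labelled *Dyrk2*-/- 6 of 10 were higher too, or 9 of 10 with spike-in scaling, with a median of 0.14, and the part of endothelial RNA in the rise of *Notch4* was not tested. *Notch4* and *Dll4*, genes of endothelium, were higher on the same array by 0.20 and 0.43, though not with spike-in scaling, and the part of endothelial RNA in this was not tested.

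At E10.5 the neuronal markers were lower on the array labelled *Dyrk2*-/- in 5 of 5 genes with each scaling tried. By 1.5-fold or more 2 of 5 were lower, against 0 with spike-in scaling, 4 after quantile normalization and 5 without scaling. The median of the 5 was −0.57. Their summed levels were 17.2 and 13.0 at E8.5, then 61.8 and 41.3 at E10.5, with the *Stmn2* probe leading the sum on each array, and *Dcx* was not well above background at E8.5. *Dll1* and *Dner*, made by newborn neurons, were lower on the same array, and the part of neuronal RNA in this was not tested.

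Neural progenitor markers, with *Sox3* leading the sum at E8.5 and *Nes* at E10.5, summed to 38.5 and 39.4 at E8.5, and later 76.0 and 62.7 at E10.5, and had median differences of −0.055 and −0.16 between genotypes, or −0.60 and 0.0046 with spike-in scaling. Between stages the medians were 0.045 in WT and 0.11 in the arrays labelled *Dyrk2*-/-: *Nes*, *Fabp7* and *Pou3f2* were higher at E10.5 by 1.71 or more, and *Sox1*, *Sox2*, *Sox3* and *Pax6* lay between −0.34 and 0.11. They split at E8.5: *Nes* was higher by 0.56 and *Pou3f2* by 1.04 on the array labelled *Dyrk2*-/-, as *Hes5* was, while *Fabp7* gave −0.70 and the others lay between −0.22 and 0.042. Markers of presomitic mesoderm and tail bud, with *Cdx2* leading the sum at E8.5 and *Fgf8* at E10.5, summed to 39.1 and 32.9 at E8.5, then 3.85 and 3.10 at E10.5. In WT 8 of 8 were 1.5-fold or more lower at E10.5. In the arrays labelled *Dyrk2*-/- 8 of 8 were lower, and *Mesp2* at least 1.35-fold, a bound, since *Msgn1* and *Mesp2* were not well above background at E10.5. *Hes7*, the repressor of the somite clock, fell between stages as well. *Dll1*, a gene of the same tissue, differed between stages by −0.051 in WT, or by 0.051 after quantile normalization, and by −0.48 in the arrays labelled *Dyrk2*-/-, or by 0.16 with spike-in scaling.

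Between genotypes at E10.5, 4 of 6 presomitic markers tested were lower on the array labelled *Dyrk2*-/-, 3 of 6 with spike-in scaling and 6 of 6 without scaling, with a median of −0.42. Of these *Tbx6* gave −1.66, *T* −1.49 and *Cdx2* −0.71. *Dll1* was lower on the same array, and the part of presomitic RNA in this was not tested.

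Mural cell markers, with the *Acta2* probe leading the sum on each array, summed to 59.3 and 64.6 at E8.5 against 36.3 and 35.7 at E10.5. They did not move together between stages: *Pdgfrb* was higher at E10.5 by 0.76 in WT and 0.46 in the arrays labelled *Dyrk2*-/-, and *Cspg4* by 2.78 and 1.63, as the mural receptor *Notch3* was. The other 3 were lower at E10.5, *Acta2* with −1.18 and −1.34, *Rgs5* with −0.64 and −1.37 and *Tagln* with −0.34 and −0.36. Between genotypes 5 of 5 were higher on the array labelled *Dyrk2*-/- at E8.5, or 1 of 5 with spike-in scaling or no scaling. At the later stage 4 of 5 were lower, or 2 of 5 with spike-in scaling, and the part of mural RNA in the values of *Notch3* was not tested. Yolk sac endoderm markers, with *Rbp4* leading the sum at E8.5 and *Afp* at E10.5, summed to 42.5 and 28.2 at E8.5, and later 20.5 and 16.9 at E10.5, and 6 of 6 were lower on the array labelled *Dyrk2*-/- at E8.5. Of the trophoblast and decidua markers on the array *Tpbpa* was well above background on no array, *Prl3d1* on the array labelled *Dyrk2*-/- at E8.5 only and *Prl8a2* on both E8.5 arrays only, and the list, with the *Plac1* probe leading the sum on each array, summed to 0.953 and 1.15 at E8.5, then 0.358 and 0.326 at E10.5. At E8.5 *Prl3d1* was at least 6.62-fold and *Prl8a2* 2.72-fold higher on the array labelled *Dyrk2*-/-, *Plac1* differed by −0.46, and the part of such tissue in the values of the Notch genes was not tested. *Apoa4* was not well above background at E10.5.

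For 1 receptor, 1 ligand and 1 target the genes with the most alike profile were found by the distance between log2 profiles over the 4 arrays, each centred on its mean, among 18805 other genes. Nearest to *Hes5* were the progenitor filament gene *Nes* at 0.065, *Twist2* at 0.081 and *Rnf182* at 0.084, and 37 genes lay within 0.25. Nearest to *Notch1* at its brightest probe were *D10Ertd755e* at 0.094, *Stat5a* at 0.11 and *AK145572* at 0.12, and 20 genes lay within 0.25. Nearest to *Dll1* were *Tceal7* at 0.014, *Map3k9* at 0.019 and *Cdh13* at 0.031, and 509 genes lay within 0.25, since few differences set its profile apart.

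The promoters of these genes were searched for the core of the site that Rbpj binds, TGGGAA, on both strands in the 250 bases before the transcription start. The promoter sequences used, from RefSeq (GRCm38.p6), covered 9 of the 10 genes and not *Hes1*. The motif was in 1 of the 9, that of *Hes5*, at −82 to −77 in the direction of the gene and at −226 to −221 on the other strand. Of 32851 promoters 21.6% held it on either strand, and it was also in those of *Hes7* and *Hey2*, so a match is a description of the sequence and not a site shown to be bound. The *Hes5* promoter is printed because *Hes5* rose the most of the 10 genes between stages. It is the plus strand of chr4:154960673-154960922, up to the base before the start, with the motif and its reverse complement in capitals.
*Hes5* promoter: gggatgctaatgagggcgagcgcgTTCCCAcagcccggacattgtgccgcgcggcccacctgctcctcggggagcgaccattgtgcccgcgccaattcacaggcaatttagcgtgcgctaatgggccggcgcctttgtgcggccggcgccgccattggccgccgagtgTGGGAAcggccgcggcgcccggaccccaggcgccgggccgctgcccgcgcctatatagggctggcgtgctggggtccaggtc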

How the data were processed

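Whole-embryo RNA of 4 groups was measured on 4 arrays of 1 slide, so genotype and stage were not split over slides. The authors deposited the scanner output of Agilent Feature Extraction (10.7.1.1 in the file headers, 9.5.1.1 in the submitters' processing notes), whose processed intensity is linear and background-subtracted, without scaling between arrays. A further set of intensities, deposited with it, has the same distribution on each array and served as an alternative only.

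Spots marked as outliers were left out, the spots of a probe were averaged as log2 processed intensity, and values were set relative to the array's 75th percentile. A value was missing for 1 of 56605 probes. RefSeq accessions named 32993 probes and renamed 1535. Coordinates of probes are those of the array annotation (mm9). A gene was read at its brightest probe, tested where the scanner software marked it well above background on either array of a pair, and called at 1.5-fold. Where only 1 array of a pair had it so marked, the fold is a bound, with the dimmer array set to its lowest value so marked, or to its own value if higher. Limma (lmFit, eBayes with an intensity trend) was fitted to probes so marked on 2 or more arrays, and p was adjusted by Benjamini-Hochberg at 0.05.

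The genes named are the 10 genes and *Dyrk2*, pathway genes past 1.5-fold between genotypes or showing a role, the 3 nearest profiles, and listed markers. The genes and lists were chosen with earlier results of these data known. Alternatives were quantile normalization, normexp (offset 50), scaling by 7 of 10 spike-in probes, no scaling, the deposited set, other filters, a 2-fold threshold, the mean over probes, limma without trend and, chosen after seeing the data, the other probe of *Notch1* and *Hes5*. R 4.3.3, limma 3.58.1, data.table (1.17.8), Python 3.11.15 and matplotlib 3.10.9 were used.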

Additional observations from a re-analysis of the deposited data

Results flagged for a closer look

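At 6 of the 12 probes of the Notch genes that were well above background on all 4 arrays, the array labelled *Dyrk2*-/- differed from WT in opposite directions at E8.5 and E10.5, each time by at least 0.13 (log2), the spread between spots of a probe taken for a difference. The E8.5 difference minus the E10.5 difference was −1.19 at the brightest *Notch1* probe, 0.45 at the *Notch3* probe, 0.46 at the *Notch4* probe, 0.45 at the *Jag2* probe, and 0.81 and 0.91 at the brightest and the other *Hes5* probe. The other *Notch1* probe was higher at both stages, by 0.79 and 0.36, and did not show the pattern. This spread within an array is smaller than the error of the scanner software, and both differences exceeded that error only at the brightest probes of *Notch1* and *Hes5*. With 1 array per group, the difference between the stages was not tested. Of 18806 genes well above background on all 4 arrays, 15.5% showed such opposite differences, 1536 of them higher at E8.5 and lower at E10.5 and 1376 the other way. With spike-in scaling *Notch3*, *Notch4* and *Jag2* were lower on the array labelled *Dyrk2*-/- at both stages. Without scaling *Notch3* and *Notch4* were, and *Jag2* gave 0.013 at E8.5, within the spread. At the brightest *Hes5* probe spike-in scaling gave 0.028 and −0.071, within the spread. The sexes of the E10.5 arrays and the erythroid levels at both stages differed between genotypes as well, and their part in these values was not tested.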

How the results depend on the processing

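With 1 array per group no replicate could be left out. The count of genes 1.5-fold apart between genotypes at E8.5, 1 of 10, was 2 after quantile normalization and 2 in the deposited table (*Hes5* higher, *Notch1* lower), 3 with spike-in scaling (*Notch1*, *Jag1* and *Hes1*, all lower), 0 with normexp and 0 at 2-fold. Between stages it went from 6 to 3 in WT at 2-fold, and in the arrays labelled *Dyrk2*-/- from 4 to 7 with spike-in scaling and to 2 at 2-fold. The genes called by limma between stages went from 6 to 1 with spike-in scaling and to 3 without the trend. The *Notch1* difference at E8.5, −0.77, changed sign to 0.0086 as the mean over both probes and to 0.79 at the other probe. The cause of these changes was not tested, beyond the shift that a scaling gives all genes. Of the other values recomputed, 42 counts stayed within 1.5 times of those reported. Among these the count at E8.5 as the mean over probes was 1 as well, but for *Hes5*, higher by 0.68, in place of *Notch1*. For single genes 148 differences moved by less than 0.13 (log2) and 98 by more. The 148 include the mean over probes for genes with 1 probe well above background, which could not move. *Dll4* and the second *Notch1* probe, though well above background, are dim, which limits their precision.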
